A study of Mus musculus with 12 samples.

Results

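The 10 genes described here encode subunits of the transcription factor NF-kB (Rela, Rel, Relb and Nfkb2), the cytoplasmic inhibitors that hold it back (Nfkbia, Nfkbib and Nfkbie) and the nuclear IkB proteins that shape its output (Nfkbiz, Nfkbid and Bcl3). They were taken by name, and each matched exactly 1 probe set with 1 gene symbol, so all 10 were measured among 22180 genes. The data are 12 whole-transcript arrays of dendritic cells grown from mouse bone marrow with the growth factor GM-CSF (20 ng/ml, harvest at day 7). Marrow came from 8-week-old animals labelled male and C57BL/6, either wildtype (Arc/Arg3.1 +/+) or Arc/Arg3.1 -/-, which lack the immediate early gene Arc. Cells of each genotype were given plain medium or 100 ng/ml LPS for 30 min, washed, and held in medium for 1 h more, which gave 4 groups of 3 arrays. The labels name each array a biological replicate but do not say whether the 3 cultures of a group came from separate animals. The p-values therefore measure only the spread between these cultures. LPS, a component of the bacterial outer membrane, is the ligand of Toll-like receptor 4.

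In resting cells, NF-kB dimers are kept in the cytoplasm by IkB proteins. Signals from Toll-like receptors activate the IkB kinase complex, which marks these inhibitors for degradation, and the freed dimers enter the nucleus. Several inhibitor genes are themselves NF-kB targets, so that the response carries its own negative feedback, and the nuclear IkB proteins are made anew during the response and act on chromatin. Control of these proteins runs largely through degradation, processing and localisation, which arrays do not measure: the values below are transcript signals only.

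Because most of these genes have been studied as NF-kB targets, their promoters were searched for the NF-kB consensus motif, named the kB motif and 10 bases long, on either strand of the 250 bases before each start site in RefSeq (GRCm38.p6). The pattern searched was GGGRNYYYCC, where R is A or G, Y is C or T and N is any base. The table of starts listed 8 of the 10 genes (not Relb and Nfkbiz). Of these 8, 4 held at least 1 match, Nfkbia, Rel, Nfkb2 and Nfkbid, beside 5.67% of the 27025 genes in the table. Some genes have several listed starts. Counted by window, 5 of 12 windows of members held a match, beside 5% of all 32851 windows. The promoters shown are those of Nfkbia and Rel, which rose after LPS and hold a match, of Nfkbie, which rose and holds none, and of Nfkbib, which did not pass the test and holds none; capitals mark the matches.
Nfkbia (chr12:55492648-55492897, minus strand): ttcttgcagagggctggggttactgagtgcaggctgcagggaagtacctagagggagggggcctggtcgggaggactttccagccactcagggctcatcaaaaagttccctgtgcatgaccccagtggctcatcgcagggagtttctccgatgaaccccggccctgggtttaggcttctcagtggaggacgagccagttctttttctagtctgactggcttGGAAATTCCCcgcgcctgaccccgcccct
Rel (chr11:23770970-23771219, minus strand): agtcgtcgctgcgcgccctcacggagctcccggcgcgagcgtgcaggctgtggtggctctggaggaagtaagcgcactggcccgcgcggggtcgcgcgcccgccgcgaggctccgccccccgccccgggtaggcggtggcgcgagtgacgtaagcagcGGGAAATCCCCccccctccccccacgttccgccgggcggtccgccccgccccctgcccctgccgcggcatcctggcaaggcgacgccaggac
Nfkbie (chr17:45555450-45555699, plus strand): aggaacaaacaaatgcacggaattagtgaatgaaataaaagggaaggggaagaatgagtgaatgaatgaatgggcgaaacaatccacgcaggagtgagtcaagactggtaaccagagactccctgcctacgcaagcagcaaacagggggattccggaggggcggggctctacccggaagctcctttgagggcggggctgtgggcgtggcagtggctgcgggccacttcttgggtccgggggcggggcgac
Nfkbib (chr7:28766645-28766894, minus strand): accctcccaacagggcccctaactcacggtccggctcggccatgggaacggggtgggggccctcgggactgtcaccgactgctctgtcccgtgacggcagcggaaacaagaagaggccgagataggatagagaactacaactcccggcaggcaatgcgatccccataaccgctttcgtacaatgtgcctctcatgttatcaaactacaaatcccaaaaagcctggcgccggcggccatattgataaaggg
The Nfkbia match lies 29 to 20 bases before the start. Rel has a pair of overlapping matches that together run from 92 to 82 bases before the start. In Nfkb2, which has 3 listed starts, the first window holds GGGAATTCCC, a match on both strands 39 to 30 bases before the start, and GGGGCTTTCC, and the third holds 1 match. In Nfkbid, also with 3 listed starts, the second window holds GGGACTTCCC 226 to 217 bases before the start. A match is a description of these letters and does not show binding, and its absence from a window shows nothing about the factor.

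The arrays had properties that bear on every comparison. Median signals lay between 6.50 and 6.67 on the log2 scale, and those probe sets that carry no gene name had a median of 5.89 to 6.10. Arc, the targeted gene, was at 9.21 to 9.62 on wildtype arrays and at 7.68 to 8.05 on knockout arrays. Over bright genes, the 3 untreated wildtype arrays differed by less than any other replicates. The standard deviation of their differences was 0.105 to 0.108 over 6440 bright genes, against 0.193 to 0.438 in the other groups. Over the 10 members it was 0.095 to 0.117, which overlapped the 0.104 to 0.230 of the other groups. The mean of the 3 untreated wildtype arrays was counted as 1 sample, although the labels name them biological replicates. That group thus added nothing to the estimate of the spread. Every SE and p-value against it assumes that it varies like the other groups. Y-linked genes were high and Xist was low on replicate 2 of both knockout groups and on replicate 1 of the LPS-treated wildtype group. The other 9 arrays showed the reverse, which goes against their label as male. Replicates 2 and 3 of both LPS groups had a lower median signal of 78 small nucleolar and Cajal body RNA genes (9.73 to 9.87) than the other 8 arrays (10.44 to 11.04). Of 15 dendritic cell markers 14 were measured, with a mean signal of 10.7 to 11.1 on every array and none under the median of the unnamed probe sets, while the T cell, B cell, NK cell and stromal marker lists averaged 5.67 to 6.63. Macrophage markers (8 of 9 measured) averaged 9.77 to 10.7, nearly as high as the dendritic list.

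LPS raised the same 5 members in each genotype: Nfkbiz, Nfkbid, Nfkbie, Nfkbia and Rel. The largest change was that of Nfkbiz, 15.8-fold in wildtype and 16.6-fold in knockout cells, followed by Nfkbid at 4.73-fold and 4.31-fold, so the nuclear IkB genes held both the strongest responses and, with Bcl3, one of the weakest. Among all genes, 1.34% rose in wildtype cells and 2.98% in knockout cells at an adjusted p under 0.05 (limma, adjusted over 22180 genes), against 5 of 10 members in each. No member fell, where 0.234% and 2.93% of all genes did; in either direction, 1.57% and 5.91% of genes were called. Folds are ratios of array signal. The median log2 difference over the 10 members was 0.63 in wildtype and 0.55 in knockout cells, where the median of all genes was -0.0053 and -0.0037. All 10 members lay above the median of the unnamed probe sets on every array, the lowest value being that of Nfkbiz on untreated knockout replicate 2 (7.56).

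**Figure D1:**
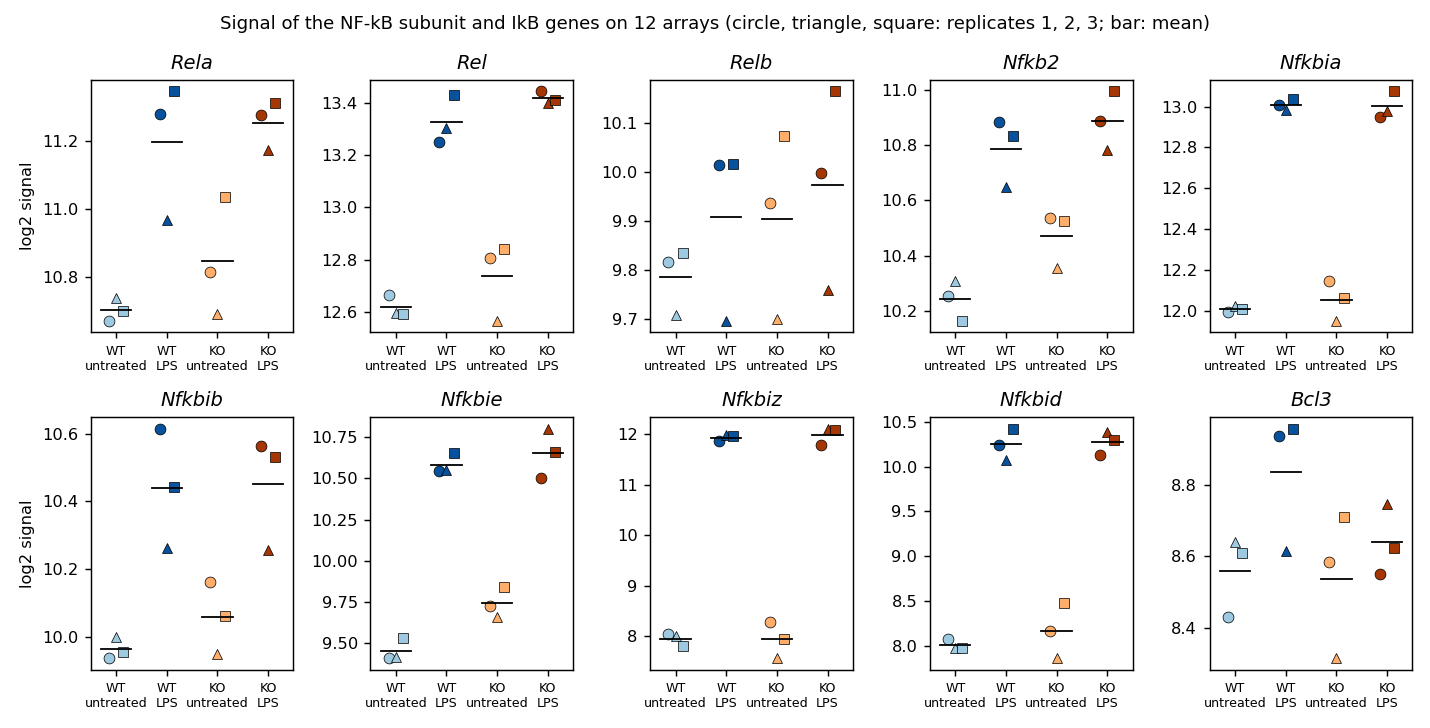
Log2 signal (vertical axes, a separate scale for each gene) of the 10 genes on 12 arrays in 4 groups; points are arrays, bars are group means. All LPS arrays of Nfkbiz lie between 11.78 and 12.11 and all untreated arrays between 7.56 and 8.29, while the groups of Relb overlap.

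The cytoplasmic inhibitors are the proteins that LPS signalling removes first. Among them, Nfkbia encodes IkB alpha, the inhibitor that is degraded within minutes of stimulation and resynthesised as feedback. Its log2 signal was 11.99, 12.02 and 12.01 on the untreated wildtype arrays and 13.01, 12.98 and 13.04 after LPS. In knockout cells it was 12.14, 11.95 and 12.06 without and 12.95, 12.98 and 13.08 with LPS. Every LPS array lay above every untreated array of either genotype. The log2 difference was 1.00 (SE 0.14, adjusted p = 0.00511 by limma), or 2-fold, in wildtype cells and 0.95 (SE 0.10, adjusted p = 0.000294) in knockout cells.

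Nfkbie encodes IkB epsilon, a second feedback inhibitor of the same family. It stood at 9.41, 9.41 and 9.53 on untreated and 10.54, 10.55 and 10.65 on LPS-treated wildtype arrays. The knockout values were 9.73, 9.66 and 9.84 without and 10.50, 10.80 and 10.66 with LPS. Treated and untreated arrays were again fully separated. Nfkbie rose 2.19-fold in wildtype (log2 1.13, SE 0.16, adjusted p = 0.00511) and 1.88-fold in knockout cells (log2 0.91, SE 0.11, adjusted p = 0.000823).

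Nfkbib, the gene of IkB beta, differed less between treatments. Wildtype arrays read 9.94, 10.00 and 9.96 without LPS and 10.62, 10.26 and 10.44 with it, and knockout arrays 10.16, 9.95 and 10.06 and 10.56, 10.26 and 10.53. LPS and untreated arrays did not overlap within a genotype. Even so, the differences of 0.48 (SE 0.18, adjusted p = 0.367) in wildtype and 0.39 (SE 0.13, adjusted p = 0.111) in knockout cells did not pass the threshold in the fit of 10 samples; in the blocked fit, which pairs arrays by replicate number, the knockout difference passed (adjusted p = 0.0299, limma). The 95% intervals were 0.07 to 0.88 and 0.11 to 0.68.

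The nuclear IkB gene Nfkbiz had the largest difference of the 10. It encodes IkB zeta, a cofactor that NF-kB needs at a subset of secondary target genes such as Il6 and Il12b. Untreated wildtype arrays had 8.04, 8.01 and 7.81 and LPS-treated ones 11.86, 11.98 and 11.96. Untreated knockout arrays had 8.29, 7.56 and 7.95, the widest spread of any member in any group, and LPS-treated ones 11.78, 12.11 and 12.08. The gap between treatments was many times the spread in either genotype. The log2 differences were 3.98 (SE 0.24, adjusted p = 4.45e-05) in wildtype and 4.06 (SE 0.17, adjusted p = 9.94e-07) in knockout cells. By size of the log2 difference, Nfkbiz was at rank 9 of 22180 genes in wildtype and rank 7 in knockout cells.

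Nfkbid encodes IkBNS, another nuclear IkB protein that modulates transcription of NF-kB targets. Its wildtype signal went from 8.07, 7.97 and 7.98 to 10.24, 10.08 and 10.43, and its knockout signal from 8.17, 7.86 and 8.47 to 10.13, 10.39 and 10.30. No LPS array overlapped an untreated one. Nfkbid rose by a log2 difference of 2.24 (SE 0.23, adjusted p = 0.000718) in wildtype and 2.11 (SE 0.16, adjusted p = 3.92e-05) in knockout cells, at rank 38 and rank 45 of all genes.

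Bcl3, the gene of a nuclear IkB protein that binds NF-kB homodimers, did not follow. It was at 8.43, 8.64 and 8.61 without and 8.94, 8.61 and 8.96 with LPS in wildtype cells, and at 8.58, 8.31 and 8.71 and 8.55, 8.75 and 8.62 in knockout cells. Treated and untreated arrays overlapped in each genotype. The differences were 0.28 (SE 0.19, adjusted p = 0.792) and 0.10 (SE 0.14, adjusted p = 0.735), with intervals of -0.15 to 0.70 and -0.20 to 0.41. Without untreated knockout replicate 2 the knockout difference was -0.01, and without the 3 arrays of high Y-linked signal it was -0.06.

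Of the subunit genes described here, which do not include Nfkb1, only Rel passed the test in the fit with 10 samples. Rel encodes c-Rel, a subunit with a transactivation domain that is prominent in dendritic and lymphoid cells. Wildtype arrays gave 12.66, 12.60 and 12.59 without and 13.25, 13.30 and 13.43 with LPS, and knockout arrays 12.81, 12.56 and 12.84 and 13.45, 13.40 and 13.41. The 6 LPS arrays all lay above the 6 untreated ones. The log2 rise was 0.68 in knockout cells (SE 0.11, adjusted p = 0.00433) and 0.71 in wildtype cells (SE 0.15, adjusted p = 0.0488). The wildtype call sits at the threshold and was lost in 12 of 25 other settings; over all 25, the adjusted p from limma ranged from 0.000485 to 0.352. It was lost without any 1 of the 3 LPS-treated wildtype arrays, untreated wildtype replicate 3, untreated knockout replicates 1 or 3, or LPS-treated knockout replicates 1 or 3, with a log2 difference of 0.66 to 0.75 in these fits.

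Rela encodes the subunit best known as the main activator of canonical NF-kB. Its signal was 10.67, 10.74 and 10.70 in untreated and 11.28, 10.97 and 11.35 in LPS-treated wildtype cells, and 10.81, 10.69 and 11.03 and 11.28, 11.17 and 11.31 in knockout cells. Nfkb2, the gene of the precursor that is processed to the partner of RelB, was at 10.25, 10.31 and 10.16 and 10.88, 10.65 and 10.83 in wildtype cells and at 10.54, 10.36 and 10.52 and 10.88, 10.78 and 10.99 in knockout cells. For each of these genes the LPS arrays lay above the untreated arrays of the same genotype without overlap. Neither passed the threshold in the fit of 10 samples. Rela differed by 0.50 (SE 0.19, adjusted p = 0.349) in wildtype and 0.41 (SE 0.13, adjusted p = 0.105) in knockout cells. Nfkb2 differed by 0.54 (SE 0.16, adjusted p = 0.163) and 0.42 (SE 0.11, adjusted p = 0.055). With the replicate number as a block, each passed in knockout cells (adjusted p = 0.0319 for Rela and 0.0228 for Nfkb2, limma). The knockout call of Nfkb2 depended on the setting also without the block, and it passed in 7 of 26 other settings. In limma fits of the 10 samples, adjusted p was 0.0494 after quantile normalization and 0.0264 among genes above the median mean signal. It was 0.0369 with a trend and robust variance model.

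Relb, the subunit of the non-canonical pathway and a gene linked to dendritic cell maturation, showed the smallest difference of the 10. It read 9.82, 9.71 and 9.84 without and 10.01, 9.70 and 10.02 with LPS in wildtype cells, and 9.94, 9.70 and 10.07 and 10.00, 9.76 and 10.17 in knockout cells. All 4 groups overlapped. The differences of 0.12 and 0.07 (SE 0.21 and 0.15, adjusted p = 0.976 and 0.846) had intervals of -0.34 to 0.58 and -0.25 to 0.40, so log2 rises up to the upper bounds are within the error. The knockout difference changed sign without untreated knockout replicate 2 (-0.03) or LPS-treated knockout replicate 3 (-0.03).

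**Figure D2:**
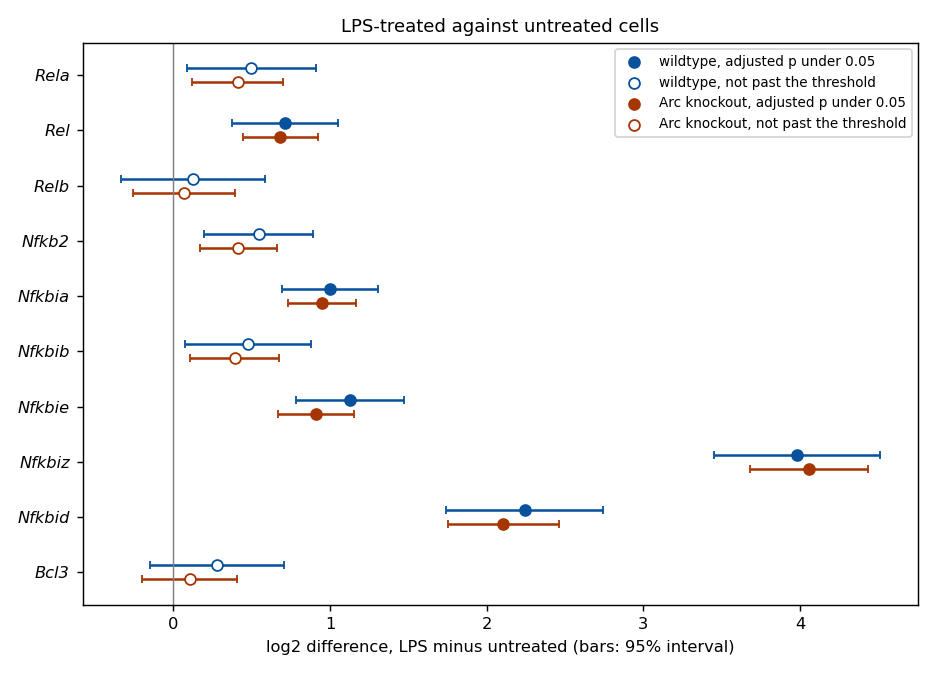
Log2 difference between LPS-treated and untreated cells (horizontal axis) for each gene, with 95% intervals from limma, in wildtype (blue) and Arc knockout cells (brown); filled points passed an adjusted p of 0.05. The same 5 genes are filled in each genotype, from Rel (0.71 and 0.68) to Nfkbiz (3.98 and 4.06).

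Ordered by the log2 difference, the members ran Nfkbiz, Nfkbid, Nfkbie, Nfkbia, Rel, Nfkb2, Rela, Nfkbib, Bcl3 and Relb in wildtype cells. In knockout cells the order was the same except that Nfkbia and Nfkbie changed places. These comparisons share no arrays but may not be independent. Residuals of LPS arrays with the same replicate number correlated at 0.228 to 0.358 between genotypes. The intervals of Nfkbiz and Nfkbid overlapped neither each other nor those of the other 8 genes in either genotype. Below them, each gene's interval overlapped those of its neighbours. In all, 8 of 10 members had every LPS array above every untreated array in wildtype cells and 8 of 10 in knockout cells, the same 8. Among all genes this was so for 16.2% and 10.3%.

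The replicate numbers were taken to pair the knockout samples, since residuals of arrays with the same number correlated at 0.381, 0.299 and 0.196. LPS-treated wildtype and untreated knockout arrays of the same number correlated at 0.145, 0.196 and 0.175. Arrays of different numbers were not compared, and in both knockout groups high Y-linked signal goes with number 2. The pairing is therefore an assumption. With the number as a block, 8 members rose in knockout cells in place of 5, in fits of 12 arrays and of the 9 arrays other than untreated wildtype. The additional genes were Nfkb2, Rela and Nfkbib, at the adjusted p given above from the fit of 9 arrays. Within pairs, LPS minus untreated was 0.35, 0.43 and 0.47 for Nfkb2, 0.46, 0.49 and 0.28 for Rela, and 0.40, 0.31 and 0.47 for Nfkbib. All 9 of these differences were above 0. When the 3 untreated wildtype arrays were instead entered as separate samples, 8 members rose in wildtype and 7 in knockout cells, with Nfkb2 at adjusted p = 0.00457 and 0.0228, Rela at 0.0205 and, in knockout cells, just under the threshold, and Nfkbib at 0.0226 and 0.0542. Relb and Bcl3 passed in none of the settings run.

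The remaining members were also set side by side within the knockout pairs. Nfkbiz differed by 3.49, 4.55 and 4.13, Nfkbid by 1.96, 2.53 and 1.83, and Nfkbie by 0.77, 1.14 and 0.82 in pairs 1, 2 and 3. Nfkbia gave 0.81, 1.03 and 1.01, and Rel 0.64, 0.83 and 0.57. Bcl3 gave -0.03, 0.43 and -0.09, and Relb 0.06, 0.06 and 0.09. Pair 2, the one with high Y-linked signal, had the largest difference for Nfkbiz, Nfkbid, Nfkbie, Nfkbia, Rel, Rela and Bcl3, and not for Nfkb2, Nfkbib and Relb. The part of that signal in these differences was not tested. Without the arrays of high Y-linked signal, 5 members rose in each genotype, and the knockout difference of Nfkbiz was 3.81. Without the 4 arrays of low small RNA signal, 1 array was left in each LPS group, so that the 3 untreated knockout arrays supplied all of the spread and the lone samples were assumed to vary like them. In that fit Nfkbiz passed in wildtype cells, and Nfkbia, Nfkbiz and Nfkbid in knockout cells, and these counts of 1 and 3 are no measure of stability. The log2 differences were 3.91 and 3.84 for Nfkbiz, 2.24 and 1.96 for Nfkbid, 1.00 and 0.90 for Nfkbia, 1.09 and 0.76 for Nfkbie and 0.64 and 0.71 for Rel.

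Markers of other cell types also differed with LPS. The macrophage list averaged 10.7 in untreated and 10.3 to 10.4 in LPS-treated wildtype cells, and 10.5 to 10.7 and 9.77 to 10.6 in knockout cells, where 1 of its genes fell. The mean signal of 5 measured monocyte markers was 9.94 to 10.1 in untreated and 8.50 to 9.01 in LPS-treated wildtype cells, and 9.65 to 9.92 and 8.27 to 8.85 in knockout cells. That of 12 neutrophil markers was 8.85 to 8.90 and 7.38 to 8.33 in wildtype, and 8.53 to 8.92 and 7.71 to 8.03 in knockout cells. Of these markers, 1 monocyte and 1 neutrophil gene fell in wildtype and 3 and 6 in knockout cells. Among all genes, 0.234% fell in wildtype and 2.93% in knockout cells. From the eosinophil list 1 gene fell in each genotype. In the dendritic list 2 genes rose in wildtype and 3 in knockout cells, where 1.34% and 2.98% of all genes did, and 0 fell. The part of these cell types in the differences of the NF-kB genes was not tested. In such bulk RNA, fewer cells of a type and less RNA per cell cannot be told apart.

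Loss of Arc was not associated with a detectable change in any of the 10 genes. In untreated cells, in LPS-treated cells and over both treatments, 0 of 10 members passed the threshold, and none had an unadjusted p under 0.05 in limma. Over all genes 0.00451% were called in untreated cells, 0.00902% after LPS and 0.0135% over both treatments. In untreated cells the only gene called was higher in knockout cells. Arc, lower on every untreated knockout array than on any untreated wildtype array, was thus not called there. That test can therefore miss a true difference. Knockout minus wildtype lay between -0.02 (Bcl3) and 0.29 (Nfkbie) in untreated cells and between -0.20 (Bcl3) and 0.10 (Nfkb2) after LPS. In untreated cells the 3 knockout arrays of Nfkb2 (10.54, 10.36 and 10.52) and of Nfkbie (9.73, 9.66 and 9.84) lay above all wildtype arrays. This held for 2 of 10 members and for 17.7% of all genes, so the members were near the background. After LPS every member overlapped between genotypes, where 2.81% of all genes lay fully above and 4.96% fully below in knockout cells.

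Intervals give the size of genotype difference that remains possible. For Nfkbia the interval after LPS was -0.23 to 0.21, the narrowest of the 10, and for Nfkbiz it was -0.32 to 0.43, the widest. In untreated cells, where wildtype counts as 1 sample, intervals were wider, at -0.05 to 0.64 for Nfkbie and -0.55 to 0.51 for Nfkbiz. Pairs of LPS arrays with the same number, whose residuals correlated at 0.228 to 0.358, were also compared. Knockout minus wildtype in pairs 1, 2 and 3 was -0.09, 0.13 and 0.13 for Nfkbiz, -0.11, 0.32 and -0.13 for Nfkbid, and -0.38, 0.13 and -0.33 for Bcl3. For Nfkb2 it was 0.0020, 0.14 and 0.16, all above 0, and the other 9 members had pairs of both signs. Y-linked signal was high only on the wildtype array of pair 1 and only on the knockout array of pair 2, and its part was not tested. With the block, 0 members passed between the LPS groups.

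The LPS response itself also did not differ detectably between genotypes. The interaction, the knockout response minus the wildtype response, was called for 0 of 10 members and 0% of all genes, although 982 of 22180 genes and 0 members had an unadjusted p under 0.05. It ranged from -0.22 for Nfkbie (SE 0.19, adjusted p = 0.948) to 0.07 for Nfkbiz (SE 0.29, adjusted p = 0.979). The intervals were -0.64 to 0.20 and -0.58 to 0.73, and the narrowest, that of Nfkbia, was -0.43 to 0.32. The half-widths ran from 0.37 to 0.65. Differences between the responses larger than these could also be missed, since a call needed an adjusted p under 0.05 over 22180 genes.

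**Figure D3:**
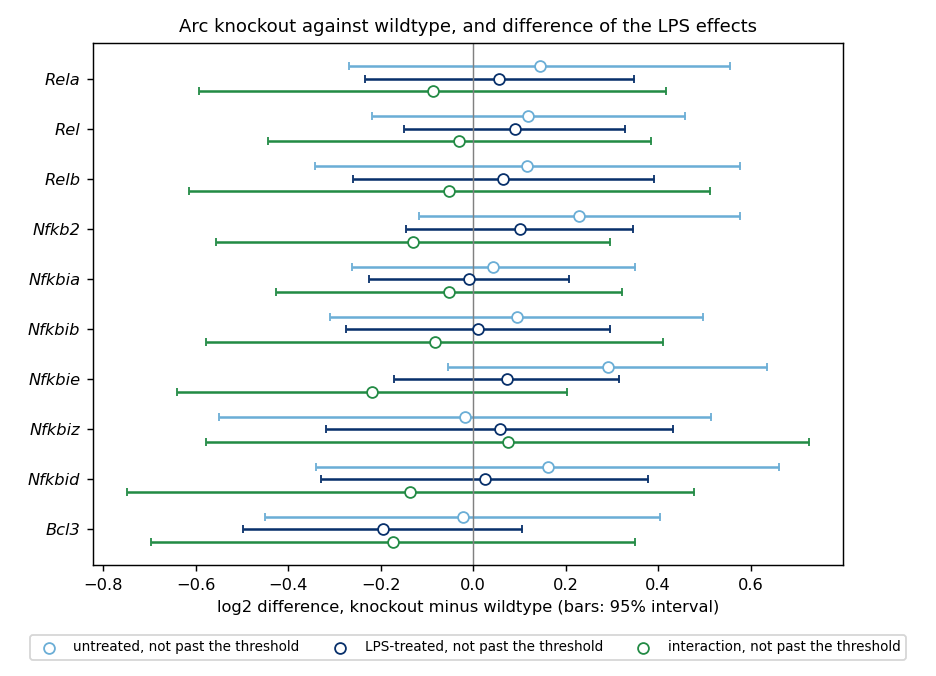
Log2 difference between Arc knockout and wildtype cells, untreated (light blue) and after LPS (dark blue), and the difference of the LPS effects (green), with 95% intervals from limma. Every interval spans 0, the nearest to an exception being Nfkbie in untreated cells (-0.05 to 0.64).

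Around these genes, 4 lists of other pathway genes were examined, chosen with earlier results of these data known. Of all genes, 1.34% rose in wildtype and 2.98% in knockout cells, and 0.234% and 2.93% fell. Of 13 measured kinases and adaptors of the IkB kinase complex and upstream steps, 1 rose in wildtype cells, Map3k8 (log2 1.17, SE 0.16, adjusted p = 0.00511), which encodes a kinase that feeds the ERK pathway in Toll-like receptor signalling. In knockout cells 3 rose and 1 fell: Map3k8 (1.14, SE 0.11), Tbk1, a kinase of the interferon branch (0.72, SE 0.12), and Tab3 (0.38, SE 0.10) were higher, and Tab1 (-0.54, SE 0.11), an adaptor of the kinase TAK1, was lower. In wildtype cells Tbk1 differed by 0.77 (adjusted p = 0.0514), Tab3 by 0.56 (0.0948) and Tab1 by -0.40 (0.363), and no gene of the list passed in the interaction. The knockout call of Tab3 (adjusted p = 0.0485) was lost in 16 of 26 other settings, among them the fits without any 1 of the knockout arrays or of the LPS-treated wildtype arrays, and that of Tab1 in 5 of 26. The kinase gene Ikbkb, chosen after its values were seen, differed by 0.25 (SE 0.24) and 0.31 (SE 0.17) and did not pass. The list medians were 0.25 and 0.22.

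Of 14 measured ubiquitin regulators and feedback genes, 3 rose in wildtype and 5 in knockout cells, and 0 fell. Among all genes, 1.34% and 2.98% rose. Tnfaip3, the gene of the deubiquitinase A20 that ends NF-kB signalling, rose 3.84-fold and 4.16-fold (log2 1.94 and 2.06, SE 0.19 and 0.13). N4bp1 rose by 0.83 in each genotype (SE 0.15 and 0.11), and Tnip3, which encodes an A20-binding protein, by 0.60 and 0.56 (SE 0.13 and 0.09). The wildtype call of Tnip3 (adjusted p = 0.0488) was lost in 17 of 25 other settings, with an adjusted p of up to 0.327. Among these were the fits without any 1 of the LPS-treated wildtype or untreated knockout arrays, untreated wildtype replicates 1 or 3, or LPS-treated knockout replicate 3. That of N4bp1 was lost in 5 of 25, and the knockout call of Tnip1 in 8 of 26. Tnip1 (0.56, SE 0.12) and the ligase gene Traf6 (0.48, SE 0.11) rose in knockout cells; in wildtype cells they differed by 0.70 and 0.65 with adjusted p = 0.0873 and 0.0684. The list medians were 0.32 and 0.14.

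Of 25 measured NF-kB target genes, 16 rose in wildtype and 17 in knockout cells, where 1.34% and 2.98% of all genes did. In this list 0 fell, and the medians were 2.01 and 2.31. The smallest p in each genotype was that of Il23a, a subunit of interleukin 23 (log2 4.07, SE 0.17, and 4.31, SE 0.12), followed by Ptgs2, the inducible cyclooxygenase (5.44, SE 0.41, and 5.69, SE 0.29). Among genes known to depend on IkB zeta, picked after their values were seen, Il6 rose by 3.06 (SE 0.31) and 3.20 (SE 0.22) and Il12b by 2.01 (SE 0.33) and 2.32 (SE 0.23). Lcn2, another such gene, differed by -0.63 (SE 0.56) and -0.41 (SE 0.39), with adjusted p = 0.879 and 0.623. Of 7 measured coactivators and corepressors, 0 passed in either genotype (2 and 4 had an unadjusted p under 0.05, as did 2199 and 4493 of all 22180 genes). In the interaction, 0 genes of the 4 lists passed or had an unadjusted p under 0.05.

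**Figure D4:**
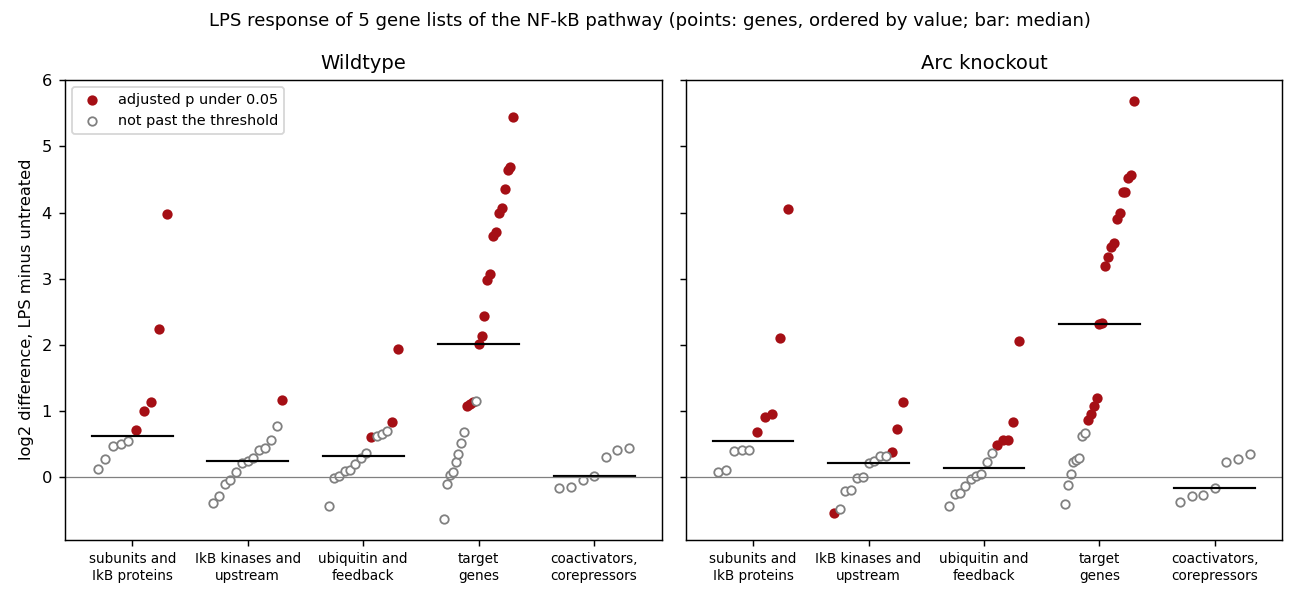
Log2 difference between LPS-treated and untreated cells for the 10 subunit and IkB genes and 4 lists of other pathway genes, in wildtype (left) and Arc knockout cells (right); each point is a gene, red where adjusted p was under 0.05, and bars are list medians. The target genes reach 5.44 and 5.69, the subunit and IkB genes 3.98 and 4.06.

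The genes with the most similar pattern over the 10 samples were also listed, by Pearson's r as a description, since samples split by LPS and any gene with a strong response has a high r. Nfkbia and Nfkbiz were each other's nearest gene of all (r = 0.998), followed by Ell2 for Nfkbia (0.997) and Tnfsf9 for Nfkbiz (0.997). Nearest to Nfkbid were Zc3h12a (0.996), the gene of the RNase Regnase-1, and Tnfaip3 (0.995). Rel was nearest to Rapgef2 (0.994) and Zc3h12c (0.994), and Nfkbie to Usp16 (0.992) and Dot1l (0.992). The members that did not pass had weaker neighbours, with Mpp5 for Nfkb2 (0.987), Foxo1 for Rela (0.978), Nudt9 for Nfkbib (0.968), Rptor for Relb (0.950) and Gm1113 for Bcl3 (0.914). An r above 0.9 was reached by 554 genes for Nfkbiz, 17 for Relb and 2 for Bcl3.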

How the data were processed

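Expression was measured on 12 Affymetrix whole-transcript arrays, 3 in each of 4 groups. The authors deposited log2 signal per probe set; its background correction and normalization method: not given in the sources used here. Of the tools, limma is named in the submitters' processing notes. Of 34390 probe sets, 23521 carried 1 gene symbol; for the 1082 genes with several, the probe set with the highest mean was kept, which left 22180 genes. The 3 untreated wildtype arrays were averaged to 1 sample because they differed far less than other replicates over bright genes. The resulting 10 samples, with 6 residual degrees of freedom, were fitted with limma 3.58.1 (R 4.3.3, lmFit, 6 contrasts, eBayes). Benjamini-Hochberg adjustment ran over all genes, with a threshold of 0.05. The number of arrays limits the precision. Replicate numbers were taken as pairs for the knockout samples and for the LPS groups, from correlated residuals (0.196 to 0.381) and not from the labels; those of untreated wildtype arrays (-0.05 to 0.11) were not. The script was checked on simulated data. Members and gene lists were chosen with earlier results of these data known; all 10 members are named, with counts, the smallest p-values and a few stated additions from the 4 other lists. Alternatives covered scaling, probe-set choice, variance model, samples fitted, the replicate block, Y-linked and small RNA arrays, and leaving out each array.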

Additional observations from a re-analysis of the deposited data

How the results depend on the processing

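In wildtype cells 5 members passed after LPS; 22 of 25 other settings gave a count within 1.5 times of this. With the untreated wildtype arrays as separate samples 8 passed, without or with the replicate block, and without the arrays of low small RNA signal 1 passed. In knockout cells 5 passed, and 23 of 26 other settings were within 1.5 times: 8 passed with the replicate block, on 12 or on 9 arrays, and 3 without the arrays of low small RNA signal. Those fits without the arrays of low small RNA signal take their spread from the untreated knockout arrays alone. Leaving out single arrays gave 4 to 5 members in wildtype and 5 to 7 in knockout cells. The block changed no other call of a count of members. In all settings run, 0 members passed between genotypes or in the interaction. Over all genes, the count moved from 349 to between 76 and 2437 in wildtype, from 1311 to between 562 and 2539 in knockout cells, from 1 to as many as 223 between untreated genotypes, from 2 to between 1 and 5 after LPS, from 3 to between 1 and 9 over both treatments, and from 0 to as many as 112 for the interaction. Target genes that rose numbered 9 to 19 in wildtype and 14 to 19 in knockout cells, ubiquitin regulators 0 to 7 and 1 to 5, and kinases 0 to 4 and 1 to 3.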

Other observations

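Within the untreated knockout group, replicate 2 was the lowest of the 3 arrays for 10 of 10 members, where it was the lowest for 33% of all genes. This array is one of those with high Y-linked signal. Replicate 2 of the LPS-treated wildtype group was the lowest for 7 of 10 members (31% of all genes). In the LPS-treated knockout group, replicates 1 and 2 were each the lowest for 5 of 10 (35.1% and 42.4%). In untreated wildtype cells, replicate 1 was the lowest for 5 of 10 (36.4%). These arrays were singled out after their values were seen, and no test was made.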
